A study of Mus musculus with 3 samples.

Results

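The basement membrane collagens are 8 genes: the 6 type IV collagen chains (Col4a1, Col4a2, Col4a3, Col4a4, Col4a5 and Col4a6) and the 2 multiplexins (Col15a1 and Col18a1). They were taken by name from the 32285 genes counted, and all 8 were found. The libraries held unselected cells from hearts of male C57/B6J mice, freed with collagenase and strained. The first was from Prkag2-p.R299Q mice, with a point mutation in a regulatory subunit of the energy sensor AMPK, and the second from Myh6-R404Q mice, with a point mutation in the alpha cardiac myosin heavy chain. The third was from wild-type (WT) mice. Mutations of both genes are used in mouse models of inherited cardiomyopathy with thickened heart muscle. The labels state neither age nor zygosity, nor how many hearts made up a library. Each genotype is a single library, so differences between genotypes have no replicate check and were not tested. Intervals, given in parentheses, are 95% intervals that cover counting error only.

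Type IV collagen forms the network of the basement membrane, the thin sheet of matrix under endothelium and mesothelium and around each muscle cell. Its chains assemble inside the cell: the Col4a1 and Col4a2 chains join in nearly every tissue, the Col4a3, Col4a4 and Col4a5 chains join each other, and the Col4a5 chain also joins that of Col4a6. The genes lie head to head in pairs around a shared start region. Types XV and XVIII collagen, the multiplexins, sit at basement membranes and carry sugar side chains, and endostatin is a released fragment of type XVIII.

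In the mm10 annotation, Col4a1 (chromosome 8, 11198423 to 11312826, minus strand) and Col4a2 (chromosome 8, 11312805 to 11449287, plus strand) have their first bases 21 bases apart. Col4a4 (chromosome 1, 82448423 to 82586849, minus strand) and Col4a3 (chromosome 1, 82586921 to 82722059, plus strand) start 72 bases apart. Col4a6 (chromosome X, 141165403 to 141474076, minus strand) and Col4a5 (chromosome X, 141475385 to 141689234, plus strand) start 1309 bases apart. Their start regions are shown because the results below are set out by pair. Col4a1 with Col4a2 and Col4a3 with Col4a4 had like patterns across cell types. Col4a5 and Col4a6 were highest in different classes among those large enough to compare. Smooth muscle, too small to compare, was high for both in Myh6-R404Q and WT. RefSeq windows of 300 bases (GRCm38.p6, from 250 bases before to 50 after a start) matched 7 of the 8 members. The window of Col4a1 contains the start of Col4a2, and that of Col4a4 contains the start of Col4a3. Capitals mark CCAAT boxes (CCAAT, or ATTGG on the other strand) and GC boxes (GGGCGG, or CCGCCC).
Col4a1, chr8:11312777-11313076, minus strand: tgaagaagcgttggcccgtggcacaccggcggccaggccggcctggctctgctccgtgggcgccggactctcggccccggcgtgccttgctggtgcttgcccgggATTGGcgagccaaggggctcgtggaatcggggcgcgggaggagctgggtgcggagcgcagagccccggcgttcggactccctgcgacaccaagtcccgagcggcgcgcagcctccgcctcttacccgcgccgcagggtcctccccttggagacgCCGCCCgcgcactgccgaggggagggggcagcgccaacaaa
Col4a4, chr1:82586800-82587099, minus strand: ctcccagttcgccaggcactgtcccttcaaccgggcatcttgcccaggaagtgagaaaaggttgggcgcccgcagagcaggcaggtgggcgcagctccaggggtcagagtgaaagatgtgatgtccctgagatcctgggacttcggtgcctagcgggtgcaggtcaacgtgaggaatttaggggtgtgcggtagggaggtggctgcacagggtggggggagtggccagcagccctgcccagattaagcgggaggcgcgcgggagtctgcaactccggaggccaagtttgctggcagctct
Col4a5, chrX:141475169-141475468, plus strand: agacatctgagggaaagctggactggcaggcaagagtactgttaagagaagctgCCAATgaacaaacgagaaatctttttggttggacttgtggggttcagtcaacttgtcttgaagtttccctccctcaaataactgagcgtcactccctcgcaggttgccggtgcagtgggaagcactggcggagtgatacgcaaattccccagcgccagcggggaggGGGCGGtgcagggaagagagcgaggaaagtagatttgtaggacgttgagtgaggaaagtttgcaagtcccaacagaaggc
Col4a6, chrX:141474027-141474326, minus strand: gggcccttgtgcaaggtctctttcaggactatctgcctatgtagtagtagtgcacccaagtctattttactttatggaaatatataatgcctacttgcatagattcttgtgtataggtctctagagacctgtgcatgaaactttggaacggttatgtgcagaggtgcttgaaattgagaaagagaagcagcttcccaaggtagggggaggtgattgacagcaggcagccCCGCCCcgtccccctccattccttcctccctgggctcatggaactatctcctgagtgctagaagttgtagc
The Col4a1 and Col4a5 windows each hold 1 CCAAT box and 1 GC box. The Col4a6 window holds 1 GC box and no CCAAT box, and neither is in the Col4a4 window. Of 32851 RefSeq windows of this length, 37.4% hold a CCAAT box and 35.7% a GC box. A TATA box (TATAAA, or TTTATA on the other strand), found in 13.6% of windows, is in none of the 4 shown. G and C make up 74.0% of the Col4a1 window, 63.3% of that of Col4a4, 52.7% of that of Col4a5 and 48.3% of that of Col4a6.

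The deposited matrices held 31385005 unique molecular identifiers (UMIs, the count of captured transcripts) over 7951 barcodes in Prkag2-p.R299Q, 38251499 over 12662 in Myh6-R404Q and 41047991 over 18033 in WT. After filters and doublet removal, 6839, 10498 and 14851 cells remained, at medians of 2347, 1850 and 1416 UMIs. The matrix deposited for Myh6-R404Q also holds every barcode of the other libraries, with 0 differing entries, and the barcodes left over were used as Myh6-R404Q. Pairs of libraries shared 28 to 51 barcode sequences and 0 identical profiles. Cells were clustered without the 8 collagens and the clusters were named by their resemblance to known types ("fibroblast-like", "endothelial-like" for capillary or general endothelium); the suffix is left out below. Genotypes were compared in the 9 classes that had 200 cells or more in every library. A level is in CPM, the UMIs of a gene scaled to a fixed total of UMIs in its class, read across classes and genotypes and not between genes.

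Across cell types the pairs parted. Of the classes compared, endothelial cells were highest for Col4a1 and Col4a2 and the endocardium for Col4a3 and Col4a4. Cardiomyocytes were highest for Col4a5, mesothelium for Col4a6, fibroblasts for Col15a1 and lymphatic endothelium for Col18a1. Smooth muscle, too small to compare, was above these classes for Col4a5, Col4a6 and Col18a1 in Myh6-R404Q and WT, with values given below. Over the 10 classes ordered, the highest mean of the 3 libraries was 12.6 times the lowest for Col4a1, 10.3 for Col4a2, 58.4 for Col4a3 and 40.4 for Col4a4. It was 19.3 times the lowest for Col4a5, 80.5 for Col4a6, 38.8 for Col15a1 and 45.3 for Col18a1. The lowest class for Col4a6 and Col4a5 was the small one of monocytes, neutrophils and dendritic cells. It gave 1 UMI of Col4a6 and 8 UMIs of Col4a5 over the 3 libraries, so the multiples of these genes are uncertain. Free RNA adds to the lowest classes by an amount that was not estimated.

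**Figure D1:**
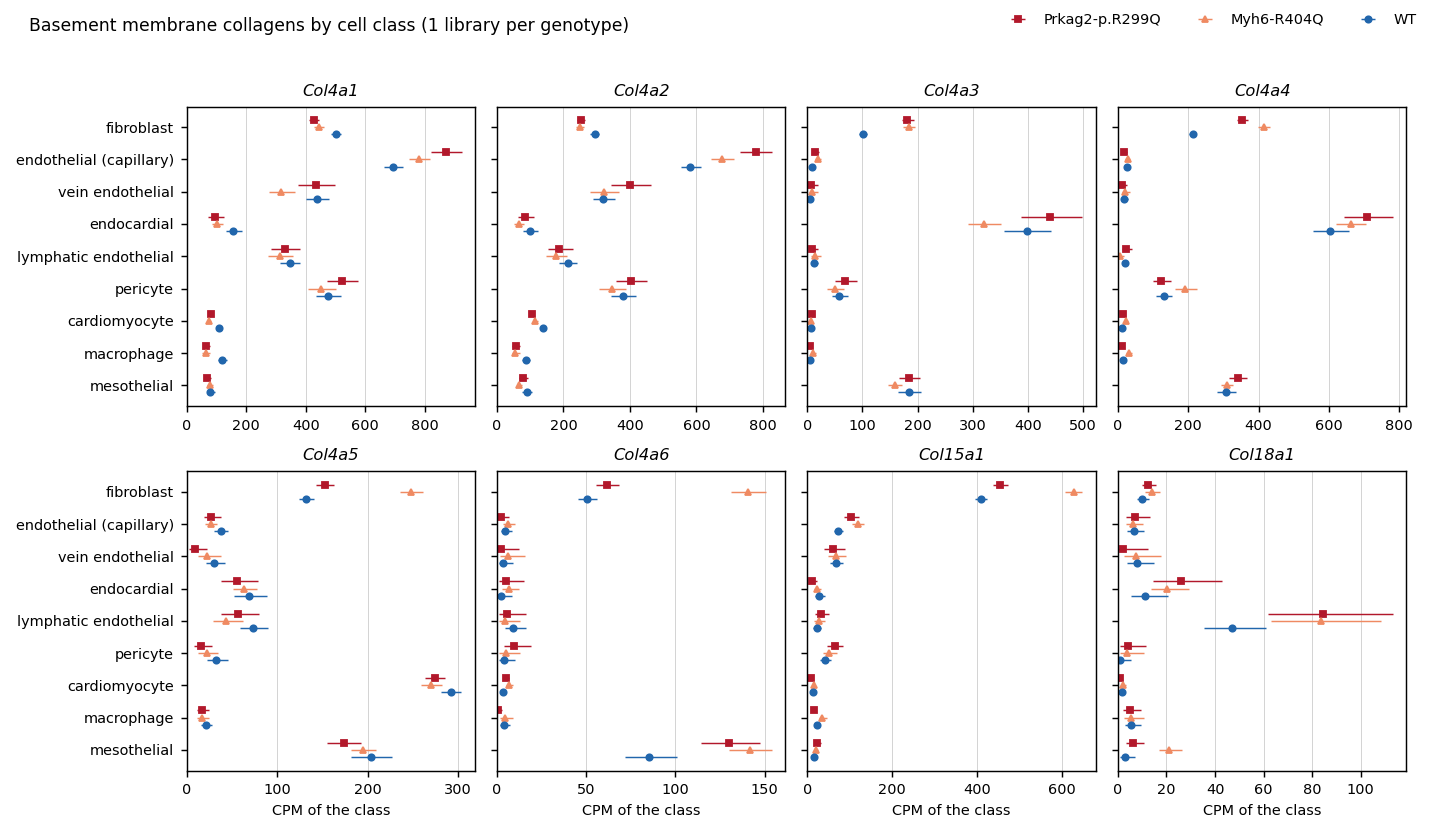
Level of each collagen in the 9 compared classes, in CPM of the class, with a marker per library and bars for the 95% counting interval. Col4a1 and Col4a2 are highest in endothelial cells, Col4a3 and Col4a4 in the endocardium, and Col15a1 in fibroblasts, where Myh6-R404Q stands at 627 CPM against 409 CPM in WT.

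Col4a1 and Col4a2 encode the chains of the common network. Endothelial Col4a1 was 872 CPM in Prkag2-p.R299Q (822 to 924), 779.98 CPM in Myh6-R404Q (745 to 816) and 694 CPM in WT (662 to 727). Endothelial Col4a2 was 779 CPM in Prkag2-p.R299Q (732 to 829), 678 CPM in Myh6-R404Q (645 to 712) and 582 CPM in WT (553 to 613). The libraries stood in the same order for both genes, and in each library endothelial cells were above every other compared class. For Col4a1, pericytes (453 to 521 CPM over the libraries), fibroblasts (428 to 502 CPM), vein endothelium (317 to 439 CPM) and lymphatic endothelium (314 to 347 CPM) followed, and neighbours in that order overlapped. The 4 other compared classes lay at 64.4 to 157 CPM, also with overlap between neighbours.

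For Col4a2, pericytes (347 CPM in Myh6-R404Q, the lowest library) overlapped vein endothelium (320.2 to 399.7 CPM). Fibroblasts (249 to 294 CPM), lymphatic endothelium (177 to 213 CPM) and cardiomyocytes (106 to 139 CPM) followed without overlap. The balance of the pair differed by cell type. The number of Col4a1 UMIs per Col4a2 UMI in fibroblasts was 1.7 in Prkag2-p.R299Q (1.59 to 1.81), 1.79 in Myh6-R404Q (1.68 to 1.91) and 1.71 in WT (1.62 to 1.8). Endothelial cells had 1.12 in Prkag2-p.R299Q (1.03 to 1.22), 1.15 in Myh6-R404Q (1.08 to 1.23) and 1.19 in WT (1.11 to 1.28), below the fibroblast intervals in every library. Cardiomyocytes had 0.765 in Prkag2-p.R299Q, 0.656 in Myh6-R404Q and 0.794 in WT, so that Col4a2 gave more UMIs than Col4a1 there, and fewer in fibroblasts and endothelial cells. Cardiomyocyte Col4a1 overlapped the macrophage level, and the part of free RNA in this balance was not estimated. In vein endothelium the balance also differed by library, at 1.08 in Prkag2-p.R299Q, 0.986 in Myh6-R404Q and 1.37 in WT.

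Col4a3 and Col4a4 encode chains best known from the filter of the kidney, where their loss causes Alport syndrome. In these hearts their level was highest in the endocardium, the inner lining of the chambers. Endocardial Col4a3 was 441 CPM in Prkag2-p.R299Q (389 to 499), 321 CPM in Myh6-R404Q (292 to 352) and 398 CPM in WT (358 to 442). Endocardial Col4a4 was 709 CPM in Prkag2-p.R299Q (642 to 781), 661 CPM in Myh6-R404Q (619 to 706) and 604 CPM in WT (554 to 657). No other compared class reached these levels in any library. Mesothelium, the outer lining, came next for Col4a3 at 158 to 184 CPM and overlapped fibroblasts at 101 to 184 CPM. For Col4a4, fibroblasts (212 to 415 CPM) overlapped mesothelium (309 to 341 CPM). Pericytes were lower for both genes, at 49.4 to 67.9 CPM of Col4a3 and 123 to 191 CPM of Col4a4.

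Endothelial cells other than the endocardium were low for this pair. Endothelial Col4a3 was 13.1 CPM in Prkag2-p.R299Q, 18.6 CPM in Myh6-R404Q and 8.69 CPM in WT. Endothelial Col4a4 was 17.8 CPM in Prkag2-p.R299Q, 27.5 CPM in Myh6-R404Q and 26.5 CPM in WT, beside 12.2 to 31 CPM in macrophages. The endocardium in turn was low for the common chains, with Col4a1 at 95.6 CPM in Prkag2-p.R299Q, 103 CPM in Myh6-R404Q and 157 CPM in WT. Endothelial cells and endocardium were thus high for different pairs of type IV chains.

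Col4a5 encodes the chain shared by the minor networks. Its level in cardiomyocytes was 274 CPM in Prkag2-p.R299Q (263 to 285), 270.3 CPM in Myh6-R404Q (259 to 282) and 292 CPM in WT (281 to 304). The share of all Col4a5 UMIs that came from cardiomyocytes was 63.9% in Prkag2-p.R299Q, 44.4% in Myh6-R404Q and 59.6% in WT. Cardiomyocytes were 16.6%, 12.4% and 14.5% of the cells in these libraries. They were the deepest class, at medians of 6632, 5133 and 3666 UMIs, so this share also follows class size and depth. Mesothelium (174 to 203 CPM) and fibroblasts (132 to 248 CPM) came next and overlapped, followed by endocardium (55.6 to 69 CPM) and lymphatic endothelium (44 to 73.1 CPM), which overlapped as well. The genes of its partner chains were low in cardiomyocytes, at 3.11 to 6.68 CPM of Col4a6, 5.88 to 7.71 CPM of Col4a3 and 11.5 to 24.1 CPM of Col4a4.

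Col4a6, whose chain joins that of Col4a5 in smooth muscle and some epithelia, was found in few classes. Mesothelial Col4a6 was 130.3 CPM in Prkag2-p.R299Q (115 to 147), 142 CPM in Myh6-R404Q (130.03 to 154) and 85.3 CPM in WT (71.7 to 101). Fibroblast Col4a6 was 61.9 CPM in Prkag2-p.R299Q (55.7 to 68.6), 141 CPM in Myh6-R404Q (131 to 151) and 50.7 CPM in WT (45.6 to 56.2), a range that overlaps the mesothelial one. No other compared class exceeded 9.32 CPM. Smooth muscle, too small to compare with 21 cells in Prkag2-p.R299Q, 57 cells in Myh6-R404Q and 201 cells in WT, held both X-linked genes. Its Col4a5 came from 4 UMIs in Prkag2-p.R299Q, 54 UMIs in Myh6-R404Q and 166 UMIs in WT, at 77 CPM in Prkag2-p.R299Q, 372 CPM in Myh6-R404Q and 375 CPM in WT. Its Col4a6 came from 7 UMIs in Prkag2-p.R299Q, 43 UMIs in Myh6-R404Q and 87 UMIs in WT, at 135 CPM in Prkag2-p.R299Q, 296 CPM in Myh6-R404Q and 197 CPM in WT.

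Col15a1 (chromosome 4, 47208161 to 47313167, plus strand) encodes type XV collagen, which links basement membranes to nearby fibrils. The share of its UMIs that came from fibroblasts was 86.6% in Prkag2-p.R299Q, 83.6% in Myh6-R404Q and 82.8% in WT. The share of fibroblasts among the cells was 32.6% in Prkag2-p.R299Q, 27.4% in Myh6-R404Q and 29% in WT. The fibroblast level was 454 CPM in Prkag2-p.R299Q (436 to 471), 627 CPM in Myh6-R404Q (607 to 647) and 409 CPM in WT (394 to 424). Fibroblasts thus held most of the Col15a1 UMIs in each library, and their level was highest in Myh6-R404Q. Endothelial cells came next at 103 CPM in Prkag2-p.R299Q, 119 CPM in Myh6-R404Q and 71.9 CPM in WT, and vein endothelium (60.3 to 67.1 CPM) overlapped pericytes (40.5 to 63.9 CPM).

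Col18a1 (chromosome 10, 77052178 to 77166548, minus strand), the gene of endostatin, was the sparsest member, with 199 UMIs in Prkag2-p.R299Q, 366 UMIs in Myh6-R404Q and 372 UMIs in WT over all kept cells. Lymphatic endothelium held 84.5 CPM in Prkag2-p.R299Q (61.7 to 113), 83.5 CPM in Myh6-R404Q (63.3 to 108) and 47 CPM in WT (35.5 to 61.1). Every other compared class was at or below 26.1 CPM in each library. Among the smaller classes, smooth muscle was at 96.2 CPM in Prkag2-p.R299Q, 276 CPM in Myh6-R404Q and 287 CPM in WT, from 5 UMIs in Prkag2-p.R299Q, 40 UMIs in Myh6-R404Q and 127 UMIs in WT. Arterial endothelium was at 156 CPM in Prkag2-p.R299Q (80.6 to 272), 93.2 CPM in Myh6-R404Q (49.6 to 159) and 65.6 CPM in WT (41.1 to 99.3), with intervals that overlap. Schwann cells gave 3 UMIs in Prkag2-p.R299Q, 8 UMIs in Myh6-R404Q and 24 UMIs in WT, which is 1.51%, 2.19% and 6.45% of the Col18a1 UMIs. They were 0.146%, 0.171% and 0.646% of the cells.

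Over 39 combinations of class and library with at least 50 cells, paired genes followed each other most closely among the members. Pearson's r of log2(CPM + 1) was 0.92 for Col4a1 with Col4a2, 0.93 for Col4a3 with Col4a4 and 0.68 for Col4a5 with Col4a6. No other pair of members passed 0.62. These points share libraries, depth and free RNA, and r describes them only. Among 8750 genes compared, Col4a1 and Col4a2 were each other's closest, and Ebf3, Snrk and Igfbp7 were among the 5 closest to both, at r of 0.88 to 0.82. Col4a3 and Col4a4 were each other's closest too. Evc2, Kcnt2, Hlf and Sfxn1 followed for Col4a3 at 0.86 to 0.82, and Kcnt2, Gli3, Sox5os2 and Hlf for Col4a4 at 0.84 to 0.82. Col4a5 was closest to Pdzrn3 (0.85), Usp54, Neo1, Map7 and Obsl1 (0.80), and Col4a6 to Ntrk2 (0.85), Slit3, Mmp23, Klhl29 and Fat1 (0.76). Col15a1 was closest to Gsn (0.86), Htra3, Mmp2, Pdgfra and Abca8a (0.79), of which Gsn, Pdgfra and Abca8a are among the fibroblast markers used to name clusters. Col18a1 had no close companion, with Slc16a11, Csrp1, Zdhhc2, Eva1c and Lrrc32 at 0.67 to 0.65.

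**Figure D2:**
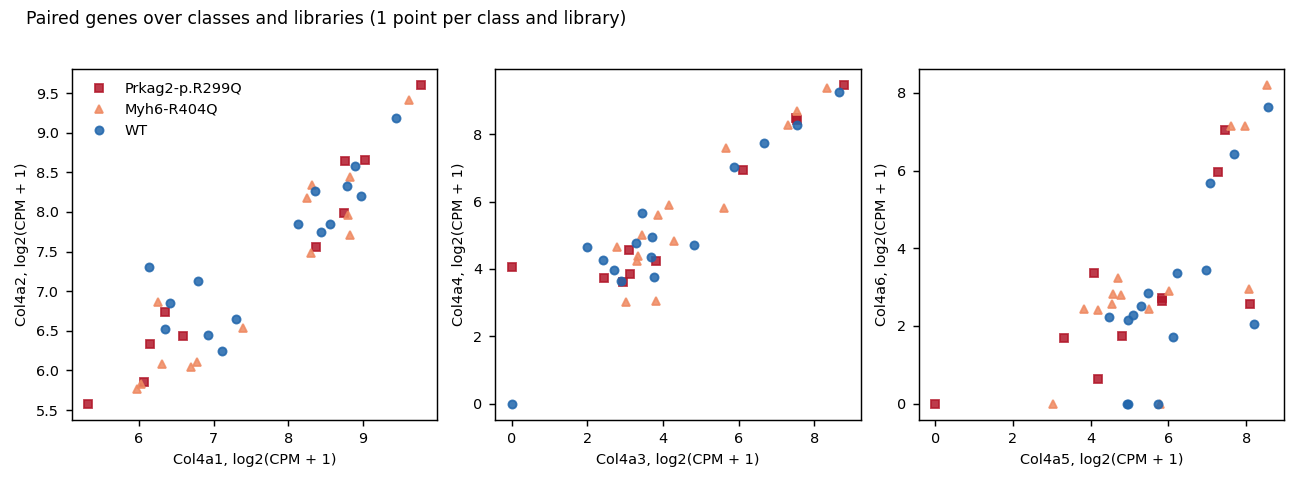
Log2(CPM + 1) of the head-to-head gene pairs, with a point per class and library (39 points of at least 50 cells). Col4a1 with Col4a2 and Col4a3 with Col4a4 lie along a line (r = 0.92 and 0.93), while cardiomyocytes stand at high Col4a5 and low Col4a6 (r = 0.68 for that pair).

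Among pairs of member and class at 1/5 or more of the member's highest class, differences between genotypes past 1.5-fold were most frequent in fibroblasts. This limit was added after seeing the data. Without it, Prkag2-p.R299Q fibroblasts had 2 of 8 members past 1.5-fold higher than WT and 0 lower, not the largest share of the classes. Vein endothelium had 0 of 5 higher and 2 lower, where 12.7% and 12.8% of all genes were. Endocardium had 1 of 7 higher and 2 lower, where 11.6% and 13.3% were. Pericytes had 1 of 6 higher and 1 lower, where 9.79% and 10.3% were. The limit also leaves out macrophages, where 5 members were measured at low levels. Of these, 0 were past 1.5-fold higher than WT and 3 lower in Prkag2-p.R299Q, where 5.64% and 10.2% of all genes were. In Myh6-R404Q macrophages 2 were past it higher and 2 lower, where 8.4% and 9.06% of all genes were. In Myh6-R404Q fibroblasts Col4a3, Col4a4, Col4a5, Col4a6 and Col15a1 were at least 1.5-fold above WT, and in Prkag2-p.R299Q fibroblasts Col4a3 and Col4a4 were. The common chains Col4a1 and Col4a2 were below WT in both, within 1.5-fold. The class held 2230 cells in Prkag2-p.R299Q, 2880 cells in Myh6-R404Q and 4303 cells in WT. All 8 members had a mean of at least 10 CPM there and were measured.

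In Prkag2-p.R299Q fibroblasts 2 of 8 members were past 1.5-fold higher than WT, where 2.76% of all 10114 genes measured were, and 0 of 8 were past it lower, where 5.29% were. In Myh6-R404Q fibroblasts 5 of 8 were past 1.5-fold higher than WT, where 3.81% of 10146 genes were, and 0 of 8 lower, where 4.22% were. Between the mutants, 0 of 8 were past it higher in Prkag2-p.R299Q (2.18% of 10098 genes) and 2 lower (3.27%). The median log2 ratio to WT over the 8 members was 0.25 in Prkag2-p.R299Q and 0.74 in Myh6-R404Q, against -0.00026 and 0.02 over all genes. Both comparisons use the same WT library, so their values stand side by side and are not independent.

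Fibroblast Col4a3 was 182 CPM in Prkag2-p.R299Q (171 to 193), 184 CPM in Myh6-R404Q (174 to 196) and 101 CPM in WT (93.6 to 108). It was 1.8 (1.64 to 1.98) of WT in Prkag2-p.R299Q and 1.83 (1.66 to 2.01) of WT in Myh6-R404Q. Prkag2-p.R299Q stood at 0.985 (0.904 to 1.07) of Myh6-R404Q, so the mutants lay together and both lay above WT. Its partner Col4a4 was 353 CPM in Prkag2-p.R299Q (338 to 369), 415 CPM in Myh6-R404Q (399 to 432) and 212 CPM in WT (202 to 223). It was 1.66 (1.56 to 1.78) of WT in Prkag2-p.R299Q and 1.95 (1.83 to 2.09) of WT in Myh6-R404Q. The 3 libraries were apart for Col4a4, with Myh6-R404Q highest and WT lowest.

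Col4a5 and Col4a6 separated the mutants. Fibroblast Col4a5 was 153 CPM in Prkag2-p.R299Q (143 to 163), 248 CPM in Myh6-R404Q (236 to 261) and 132 CPM in WT (124 to 141). It was 1.15 (1.05 to 1.27) of WT in Prkag2-p.R299Q and 1.87 (1.72 to 2.03) of WT in Myh6-R404Q, and Prkag2-p.R299Q stood at 0.616 (0.567 to 0.67) of Myh6-R404Q. Myh6-R404Q was thus the high library. Fibroblast Col4a6, from 364 UMIs in Prkag2-p.R299Q, 829 UMIs in Myh6-R404Q and 362 UMIs in WT, was 1.22 (1.05 to 1.42) of WT in Prkag2-p.R299Q and 2.78 (2.45 to 3.15) of WT in Myh6-R404Q. Prkag2-p.R299Q stood at 0.44 (0.388 to 0.498) of Myh6-R404Q, the farthest of any member in this class. The number of Col4a5 UMIs per Col4a6 UMI in fibroblasts was 2.47 in Prkag2-p.R299Q (2.18 to 2.8), 1.76 in Myh6-R404Q (1.62 to 1.92) and 2.61 in WT (2.31 to 2.96).

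The share of fibroblasts with at least 1 Col4a6 UMI was 10.4% in Prkag2-p.R299Q, 18.3% in Myh6-R404Q and 6.04% in WT. With each cell thinned to 1000 UMIs it was 5.12% in Prkag2-p.R299Q, 10.7% in Myh6-R404Q and 4.57% in WT, over 2091 cells in Prkag2-p.R299Q, 2664 cells in Myh6-R404Q and 3526 cells in WT of that depth or more. In macrophages, which should lack the gene, the thinned share was 0.135% in Prkag2-p.R299Q, 0.39% in Myh6-R404Q and 0.376% in WT. The median depth before thinning was 2528 UMIs per fibroblast in Prkag2-p.R299Q, 1905 UMIs per fibroblast in Myh6-R404Q and 1540 UMIs per fibroblast in WT. In macrophages it was 2108 UMIs in Prkag2-p.R299Q, 1584 UMIs in Myh6-R404Q and 1286 UMIs in WT. The fibroblast shares were above the macrophage shares in every library, and Myh6-R404Q was highest before and after thinning.

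Fibroblast Col15a1 was 1.53 (1.46 to 1.61) of WT in Myh6-R404Q, just past 1.5-fold (1.45 in the lowest of the alternative settings), and 1.11 (1.05 to 1.17) of WT in Prkag2-p.R299Q. Fibroblast Col4a1 was 428 CPM in Prkag2-p.R299Q (412 to 445), 445 CPM in Myh6-R404Q (428 to 463) and 502 CPM in WT (486 to 519), which is 0.853 (0.811 to 0.898) of WT in Prkag2-p.R299Q and 0.887 (0.843 to 0.933) in Myh6-R404Q. Fibroblast Col4a2 was 0.859 (0.803 to 0.919) of WT in Prkag2-p.R299Q and 0.848 (0.793 to 0.907) in Myh6-R404Q. The common chains were thus lower than WT beyond counting error and within 1.5-fold. Summed endothelial and pericyte markers were also lower than WT in the fibroblasts of both mutants, with values given after the fibroblast members. Col18a1 was 12.6 CPM in Prkag2-p.R299Q, 14.1 CPM in Myh6-R404Q and 10.1 CPM in WT, and its ratio to WT was 1.25 (0.89 to 1.75) in Prkag2-p.R299Q and 1.4 (1.01 to 1.94) in Myh6-R404Q.

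**Figure D3:**
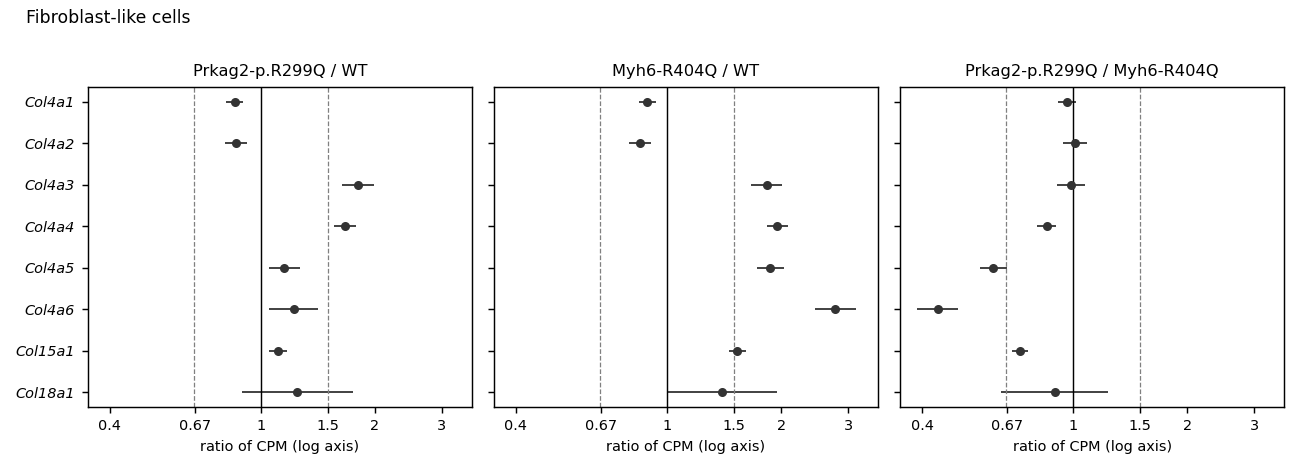
Ratio of CPM in fibroblasts for the 8 collagens in the 3 comparisons, on a log axis, with bars for the 95% counting interval and lines at 1.5-fold either way. Col4a3 and Col4a4 lie past 1.5-fold in both mutants against WT, and Col4a5 and Col4a6 in Myh6-R404Q against WT and between the mutants.

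Markers of other cells differed between the fibroblast classes of the libraries. The 9 mesothelial markers, none at 0, summed to 95.4 CPM in Prkag2-p.R299Q, 204 CPM in Myh6-R404Q and 107 CPM in WT, which is 1.09%, 2.51% and 1.32% of their sum in mesothelium. Col4a6 in Myh6-R404Q fibroblasts (141 CPM) was as high as in Myh6-R404Q mesothelium (142 CPM). The 7 endocardial markers, none at 0, summed to 389 CPM in Prkag2-p.R299Q, 394 CPM in Myh6-R404Q and 338 CPM in WT, which is 3.62%, 3.63% and 3.58% of their endocardial sum. Both mutants are slightly above WT in that sum, as for Col4a3 and Col4a4 at a larger ratio. The 8 cardiomyocyte markers, none at 0, summed to 4569 CPM in Prkag2-p.R299Q, 7038 CPM in Myh6-R404Q and 8656 CPM in WT. The median log2 ratio to WT of immediate early genes, a gauge of cell isolation, was -0.50 in Prkag2-p.R299Q and -0.36 in Myh6-R404Q, and that of heat shock genes -0.61 and -0.69. The 11 endothelial markers, none at 0, summed to 158 CPM in Prkag2-p.R299Q, 238 CPM in Myh6-R404Q and 392 CPM in WT, which is 1.94%, 3.02% and 4.70% of their endothelial sum. The 9 pericyte markers, none at 0, summed to 237 CPM in Prkag2-p.R299Q, 293 CPM in Myh6-R404Q and 305 CPM in WT, which is 2.25%, 2.65% and 3.17% of their pericyte sum. Both sums stood in the order of fibroblast Col4a1, and Col4a1 and Col4a2 were highest in those classes. The part of these markers and gauges in the collagen ratios was not tested.

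Clustering at a higher resolution split the fibroblasts into 5 groups of at least 100 cells in each library, called by number and leading genes: 0 (Col8a1, Hmcn2, C7 and Pcsk6), 1 (Rgs17, Kcnip1, Bmper and Lvrn), 5 (Col6a3, Rgs17, Bmper and Hmcn2), 11 (Gfpt2, Adamtsl3, Pi16 and Has2os) and 16 (Fbn2, Shisa9, Sntg1 and Aox3). Their sizes differed by library, and group 5 had 178 cells in Prkag2-p.R299Q, 488 cells in Myh6-R404Q and 1245 cells in WT. In Myh6-R404Q, Col4a4 was 1.78 to 1.99 times WT and Col4a6 1.98 to 3.6 times WT over the 5 groups. Col4a3 was 1.31 to 2.41 times, Col4a5 1.31 to 2.18 times and Col15a1 1.25 to 1.61 times WT. These 5 genes, the same that were past 1.5-fold in the whole class, were above WT in 5 of 5 groups. The groups split the cells and libraries that gave the class ratios. They are thus neither replicates nor a separate check, here or for Prkag2-p.R299Q below. The share of all genes above WT in every group was not computed. Col4a1 was 0.683 to 1.12 times WT and below WT in 4 of 5 groups.

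In Prkag2-p.R299Q, Col4a3 was 1.49 to 2.01 times WT and Col4a4 1.11 to 1.75 times WT, above WT in 5 of 5 groups. Col4a1 was 0.645 to 0.92 times WT, below it in 5 of 5 groups. Col4a6 was not uniform, at 1.59 (1.13 to 2.25) of WT in group 11 and 0.516 (0.269 to 0.935) in group 16, from 15 UMIs in Prkag2-p.R299Q and 49 in WT. Group 16 was also the lowest of the groups for Col15a1, at 182 CPM in Prkag2-p.R299Q, 266 CPM in Myh6-R404Q and 183 CPM in WT. Group 0 was the highest for Col15a1, at 562 CPM in Prkag2-p.R299Q, 745 CPM in Myh6-R404Q and 489.9 CPM in WT. Between the mutants, Col4a6 in Prkag2-p.R299Q was 0.26 to 0.544 times Myh6-R404Q, past 1.5-fold in 5 of 5 groups.

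**Figure D4:**
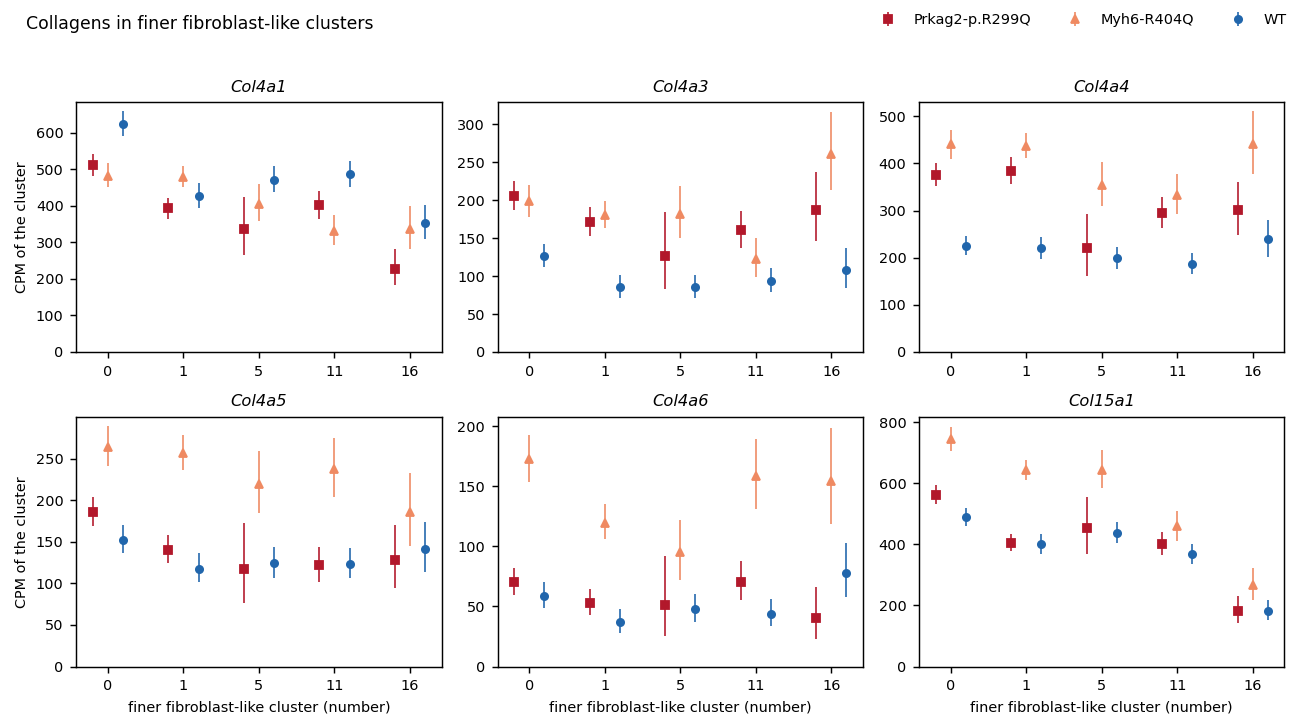
Level of 6 collagens in 5 finer fibroblast clusters, in CPM of the cluster, with a marker per library and bars for the 95% counting interval. Myh6-R404Q is the highest library for Col4a4, Col4a5 and Col4a6 in every cluster, and WT is the lowest for Col4a3 in every cluster.

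In endothelial cells 6 members were measured. Past 1.5-fold above WT was 1 of them in Prkag2-p.R299Q, where 6.03% of 9785 genes were, and 0 were past it lower, where 6.36% were. In Myh6-R404Q 2 were past it higher, where 5.11% of 9811 genes were, and 0 lower, where 5.87% were. The gene past it in Prkag2-p.R299Q was Col4a3, at 1.51 (0.753 to 2.98) from 17 UMIs in Prkag2-p.R299Q and 22 in WT. In Myh6-R404Q the genes were Col4a3, at 2.14 (1.26 to 3.76), and Col15a1, at 1.65 (1.36 to 2.0). Col15a1 in Prkag2-p.R299Q was 1.44 (1.14 to 1.81) of WT. In the finer endothelial cluster led by Nav3, Ccdc85a, Dach1 and Mcf2l Col15a1 was 115 CPM in Prkag2-p.R299Q, 138 CPM in Myh6-R404Q and 63.3 CPM in WT. In the cluster led by Mcf2l, Ccdc85a, Rgcc and Cyyr1 it was 73.2 CPM in Prkag2-p.R299Q, 67.5 CPM in Myh6-R404Q and 83.5 CPM in WT, with WT the highest library. The first cluster held 520 cells in Prkag2-p.R299Q, 1098 cells in Myh6-R404Q and 879 cells in WT, and the second held 230 cells in Prkag2-p.R299Q, 508 cells in Myh6-R404Q and 1331 cells in WT.

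Endothelial Col4a1, in the class where it was highest, was 1.26 (1.16 to 1.35) of WT in Prkag2-p.R299Q and 1.12 (1.05 to 1.2) in Myh6-R404Q. Endothelial Col4a2 was 1.34 (1.23 to 1.45) of WT in Prkag2-p.R299Q and 1.16 (1.08 to 1.25) in Myh6-R404Q. Both were above WT here and below it in fibroblasts, in each case within 1.5-fold; the difference between the classes was not tested. In pericytes Col4a1 was 1.1 (0.958 to 1.26) of WT in Prkag2-p.R299Q and 0.954 (0.831 to 1.09) in Myh6-R404Q, within counting error, and the Prkag2-p.R299Q ratio fell on either side of 1 under other settings. Pericyte Col4a4 was 1.47 (1.16 to 1.86) of WT in Myh6-R404Q, and Prkag2-p.R299Q stood at 0.641 (0.489 to 0.834) of Myh6-R404Q. In vein endothelium Col4a1 was 0.987 (0.832 to 1.17) of WT in Prkag2-p.R299Q and 0.722 (0.612 to 0.851) in Myh6-R404Q.

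In the endocardium, where Col4a3 and Col4a4 were highest, neither passed 1.5-fold. Endocardial Col4a4 was 1.17 (1.03 to 1.34) of WT in Prkag2-p.R299Q and 1.1 (0.983 to 1.22) in Myh6-R404Q. Endocardial Col4a3 was 1.11 (0.94 to 1.31) of WT in Prkag2-p.R299Q and 0.806 (0.699 to 0.93) in Myh6-R404Q. The intervals of this pair in the endocardium lie below those in fibroblasts in both mutants; that difference was not tested. Endocardial Col4a1, at a low level, was 0.608 (0.437 to 0.836) of WT in Prkag2-p.R299Q and 0.657 (0.517 to 0.836) in Myh6-R404Q. Endocardial Col4a2 was 0.855 (0.591 to 1.23) of WT in Prkag2-p.R299Q and 0.654 (0.482 to 0.887) in Myh6-R404Q. Under other settings endocardial Col4a1 came up to 0.763 of WT in Prkag2-p.R299Q and 0.835 in Myh6-R404Q, and Col4a2 to 0.898 in Myh6-R404Q, all within 1.5-fold.

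In mesothelium Col4a6 was 1.53 (1.23 to 1.89) of WT in Prkag2-p.R299Q and 1.66 (1.37 to 2.01) in Myh6-R404Q. Under other settings these ratios came down to 1.12 in Prkag2-p.R299Q and 1.44 in Myh6-R404Q. The paired gene Col4a5 was 0.853 (0.73 to 0.996) of WT in Prkag2-p.R299Q and 0.96 (0.842 to 1.1) in Myh6-R404Q. The number of Col4a5 UMIs per Col4a6 UMI was 1.33 in Prkag2-p.R299Q (1.13 to 1.58), 1.38 in Myh6-R404Q (1.23 to 1.54) and 2.38 in WT (1.95 to 2.93), so both mutants lay below WT without overlap. Mesothelial Col4a3 was 1.0 (0.855 to 1.17) of WT in Prkag2-p.R299Q and 0.858 (0.746 to 0.989) in Myh6-R404Q. Mesothelial Col4a4 was 1.1 (0.981 to 1.24) of WT in Prkag2-p.R299Q and 1.01 (0.905 to 1.12) in Myh6-R404Q. Neither reached the ratios of the fibroblasts. Mesothelial Col18a1 came from 12 UMIs in Prkag2-p.R299Q, 82 UMIs in Myh6-R404Q and 5 UMIs in WT. Myh6-R404Q was 6.84 times WT, with 6.01 to 6.86 under other settings, and this ratio rests on the 5 WT UMIs. Prkag2-p.R299Q stood at 0.296 of Myh6-R404Q. The level of Col18a1 was 21.2 CPM in Myh6-R404Q and 3.09 CPM in WT mesothelium. In the finer mesothelial cluster led by Rspo2, Fras1, Grip1 and Wdr17 it was 3.31 CPM (1 UMI) in Prkag2-p.R299Q, 44.3 CPM (59 UMIs) in Myh6-R404Q and 6.65 CPM (2 UMIs) in WT, so most of the Myh6-R404Q UMIs were there. The share of mesothelial cells among the kept cells was 8.52% in Prkag2-p.R299Q, 13% in Myh6-R404Q and 5.4% in WT.

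Lymphatic Col18a1, its highest compared class, was 1.8 (1.19 to 2.71) of WT in Prkag2-p.R299Q and 1.78 (1.21 to 2.61) in Myh6-R404Q, from 45 UMIs in Prkag2-p.R299Q, 57 UMIs in Myh6-R404Q and 56 UMIs in WT. The lowest ratios under other settings were 1.39 in Prkag2-p.R299Q and 1.12 in Myh6-R404Q, so these calls depend on the processing. Endocardial Col18a1 was 2.3 (0.968 to 5.74) of WT in Prkag2-p.R299Q and 1.79 (0.844 to 4.13) in Myh6-R404Q, from 15 UMIs in Prkag2-p.R299Q, 28 UMIs in Myh6-R404Q and 10 UMIs in WT. Lymphatic Col4a5 was 0.771 (0.492 to 1.18) of WT in Prkag2-p.R299Q and 0.602 (0.383 to 0.92) in Myh6-R404Q. Cardiomyocyte Col4a5 was 0.937 (0.887 to 0.99) of WT in Prkag2-p.R299Q and 0.924 (0.872 to 0.979) in Myh6-R404Q, close to WT in its highest compared class. In the finer cardiomyocyte cluster led by Mhrt, Hs3st5, Rbm20 and Kcnn2 it was 289 CPM in Prkag2-p.R299Q, 285 CPM in Myh6-R404Q and 279 CPM in WT. In the small cluster led by Nppa, Acta1, Ankrd23 and Xirp2, genes of stressed heart muscle among them, it was 45.8 CPM (9 UMIs) in Prkag2-p.R299Q, 36.1 CPM (5 UMIs) in Myh6-R404Q and 71.1 CPM (2 UMIs) in WT. That cluster held 115 cells in Prkag2-p.R299Q, 72 cells in Myh6-R404Q and 21 cells in WT, and its Col4a5 was lower than in the other cluster in each library. Cardiomyocyte Col4a2 was 0.764 (0.702 to 0.831) of WT in Prkag2-p.R299Q and 0.832 (0.762 to 0.908) in Myh6-R404Q. Scaling by TMM moved every log2 ratio of Myh6-R404Q to WT in cardiomyocytes by -0.10.

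Of 14 other basement membrane components, 10 were measured in fibroblasts. Past 1.5-fold higher than WT were 2 in Prkag2-p.R299Q, where 2.76% of all genes were, and 2 in Myh6-R404Q, where 3.81% were. Past it lower were 0 in Prkag2-p.R299Q, where 5.29% of all genes were, and 1 in Myh6-R404Q, where 4.22% were. Nid1, which bridges laminin and type IV collagen, was 595 CPM in Prkag2-p.R299Q, 518 CPM in Myh6-R404Q and 341 CPM in WT. Lamb1, a laminin beta chain, was 245 CPM in Prkag2-p.R299Q, 252 CPM in Myh6-R404Q and 149 CPM in WT. Both mutants were above WT for these genes, as for Col4a3 and Col4a4. Lamb3, another laminin beta chain, was 29.9 CPM in Prkag2-p.R299Q, 18.3 CPM in Myh6-R404Q and 29.7 CPM in WT. The abundant laminin chains were within 1.5-fold of WT, with Lama2 at 2669 CPM in Prkag2-p.R299Q, 3001 CPM in Myh6-R404Q and 2540.3 CPM in WT. Lamc1 was 1655 CPM in Prkag2-p.R299Q, 1301 CPM in Myh6-R404Q and 1357 CPM in WT. Lama4 was 459 CPM in Prkag2-p.R299Q, 519.6 CPM in Myh6-R404Q and 402 CPM in WT. The median log2 ratio of the list to WT was 0.13 in Prkag2-p.R299Q and 0.18 in Myh6-R404Q.

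Of 20 genes of collagen folding, modification and export, 19 were measured in fibroblasts. In Prkag2-p.R299Q 2 were past 1.5-fold higher than WT and 0 lower, where 2.76% and 5.29% of all genes were. In Myh6-R404Q 2 were past it higher and 1 lower, where 3.81% and 4.22% of all genes were. Pxdn, the peroxidase that cross-links type IV collagen, was 79.3 CPM in Prkag2-p.R299Q, 117 CPM in Myh6-R404Q and 65.3 CPM in WT. P3h2, a prolyl 3-hydroxylase, was 10.2 CPM in Prkag2-p.R299Q, 22.8 CPM in Myh6-R404Q and 12.5 CPM in WT. Both were highest in Myh6-R404Q, the library with the highest fibroblast Col4a5 and Col4a6. Colgalt2, a collagen galactosyltransferase, was 229 CPM in Prkag2-p.R299Q, 212 CPM in Myh6-R404Q and 149 CPM in WT. Loxl2, a cross-linking oxidase, was 58.9 CPM in Prkag2-p.R299Q, 43 CPM in Myh6-R404Q and 35 CPM in WT. Serpinh1, the collagen chaperone, was 131 CPM in Prkag2-p.R299Q, 84.8 CPM in Myh6-R404Q and 162 CPM in WT, lowest in Myh6-R404Q. Serpinh1 is also induced by heat shock, and the heat shock gauge was lower than WT in both mutants. P4ha1, a prolyl 4-hydroxylase subunit, was 279.5 CPM in Prkag2-p.R299Q, 248 CPM in Myh6-R404Q and 353 CPM in WT. Sparc, a collagen-binding protein of the matrix, was 261 CPM in Prkag2-p.R299Q, 218 CPM in Myh6-R404Q and 224 CPM in WT. Mia2, of collagen export, was 188 CPM in Prkag2-p.R299Q, 209 CPM in Myh6-R404Q and 191 CPM in WT. The median log2 ratio of the list to WT was 0.03 in Prkag2-p.R299Q and 0.06 in Myh6-R404Q, close to that of all genes.

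A list of 9 matrix receptor genes was not limited to receptors for type IV collagen. Of these, 8 were measured in fibroblasts and 0 were past 1.5-fold from WT in either mutant. Of all genes, 2.76% were past it higher and 5.29% lower in Prkag2-p.R299Q, and 3.81% and 4.22% in Myh6-R404Q. The median log2 ratio of the receptors was 0.05 in Prkag2-p.R299Q and -0.09 in Myh6-R404Q. Ddr2, a collagen receptor kinase, was 463 CPM in Prkag2-p.R299Q, 451 CPM in Myh6-R404Q and 517 CPM in WT. The integrin subunit gene Itgb1 was 255 CPM in Prkag2-p.R299Q, 241 CPM in Myh6-R404Q and 239 CPM in WT. Itgav was 121 CPM in Prkag2-p.R299Q, 134 CPM in Myh6-R404Q and 114 CPM in WT and Itga5 was 116 CPM in Prkag2-p.R299Q, 101 CPM in Myh6-R404Q and 142 CPM in WT. The receptor genes of highest level thus lay within 1.5-fold of WT. Itga5 was lower beyond counting error, at 0.819 (0.742 to 0.903) of WT in Prkag2-p.R299Q and 0.711 (0.642 to 0.788) in Myh6-R404Q. So was Ddr2, at 0.895 (0.852 to 0.941) of WT in Prkag2-p.R299Q and 0.873 (0.83 to 0.918) in Myh6-R404Q. Itgav was higher in Myh6-R404Q, at 1.18 (1.07 to 1.3) of WT. Between the mutants, Itgb3 was 1.63 (1.14 to 2.36) in Prkag2-p.R299Q relative to Myh6-R404Q.

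Of 11 proteases and inhibitors that act on basement membrane, 8 were measured in fibroblasts against WT. In Prkag2-p.R299Q 0 were past 1.5-fold higher and 2 lower, where 2.76% and 5.29% of all genes were. In Myh6-R404Q 1 was past it higher and 2 lower, where 3.81% and 4.22% of all genes were. The protease Mmp3 was 8.85 CPM in Prkag2-p.R299Q, 12.7 CPM in Myh6-R404Q and 39.9 CPM in WT. The inhibitor Timp4 was 6.97 CPM in Prkag2-p.R299Q, 12.6 CPM in Myh6-R404Q and 18.9 CPM in WT. WT was highest for both. The lysosomal protease Ctsl was 69.1 CPM in Prkag2-p.R299Q, 79.7 CPM in Myh6-R404Q and 47.3 CPM in WT. Timp3, an inhibitor bound to matrix, was 329 CPM in Prkag2-p.R299Q, 201 CPM in Myh6-R404Q and 229 CPM in WT, and the Prkag2-p.R299Q level was 1.64 (1.52 to 1.76) of that in Myh6-R404Q. Timp2 was 167 CPM in Prkag2-p.R299Q, 184 CPM in Myh6-R404Q and 151 CPM in WT. The gelatinase Mmp2, also among the genes closest to Col15a1 across classes, was 139 CPM in Prkag2-p.R299Q, 156 CPM in Myh6-R404Q and 115 CPM in WT. The median log2 ratio of the list to WT was 0.01 in both mutants.

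In endothelial cells, where the common chains were highest, 16 folding and export genes were measured. In Prkag2-p.R299Q 2 were past 1.5-fold higher than WT, where 6.03% of all genes were, and 2 lower, where 6.36% were. In Myh6-R404Q 1 was past it higher, where 5.11% of all genes were, and 4 lower, where 5.87% were. Pxdn was 151 CPM in Prkag2-p.R299Q, 169 CPM in Myh6-R404Q and 83.3 CPM in WT, with both mutants above WT, as for Col4a1 and Col4a2 at smaller ratios. P4ha2, a prolyl 4-hydroxylase subunit, was 27.8 CPM in Prkag2-p.R299Q, 27.9 CPM in Myh6-R404Q and 46.2 CPM in WT. P4ha1 was 163 CPM in Prkag2-p.R299Q, 129.6 CPM in Myh6-R404Q and 240.2 CPM in WT, and Serpinh1 was 118 CPM in Prkag2-p.R299Q, 80.5 CPM in Myh6-R404Q and 153 CPM in WT. These were all highest in WT. Plod2, a lysyl hydroxylase, was 0.653 (0.533 to 0.798) of WT in Myh6-R404Q, and P3h2 was 0.511 (0.281 to 0.883) of WT in Prkag2-p.R299Q. Of the other genes of highest level, Sparc was 307 CPM in Prkag2-p.R299Q, 199 CPM in Myh6-R404Q and 267 CPM in WT. Colgalt2 was 192 CPM in Prkag2-p.R299Q, 199.9 CPM in Myh6-R404Q and 161 CPM in WT and Mia2 was 137 CPM in Prkag2-p.R299Q, 149 CPM in Myh6-R404Q and 146 CPM in WT.

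Of 11 other basement membrane components measured in endothelial cells, 1 was past 1.5-fold higher and 1 lower than WT in Prkag2-p.R299Q, where 6.03% and 6.36% of all genes were. In Myh6-R404Q 1 was past it higher and 0 lower, where 5.11% and 5.87% of all genes were. Nid2, a relative of Nid1, was 65.6 CPM in Prkag2-p.R299Q, 66.9 CPM in Myh6-R404Q and 39.1 CPM in WT. Lama2 was 109 CPM in Prkag2-p.R299Q, 118 CPM in Myh6-R404Q and 168 CPM in WT, far below its fibroblast level. Hspg2, the gene of perlecan, was 649.5 CPM in Prkag2-p.R299Q, 622 CPM in Myh6-R404Q and 541 CPM in WT, and Lama4, the endothelial laminin alpha chain, was 676 CPM in Prkag2-p.R299Q, 619 CPM in Myh6-R404Q and 529 CPM in WT. Both stood in the order of Col4a1 and Col4a2, with Prkag2-p.R299Q highest and WT lowest, and within 1.5-fold. Lamc1 was 327 CPM in Prkag2-p.R299Q, 276 CPM in Myh6-R404Q and 262 CPM in WT and Nid1 was 179 CPM in Prkag2-p.R299Q, 145 CPM in Myh6-R404Q and 165 CPM in WT.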

How the data were processed

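Each library was a 3-prime droplet library of 1 genotype. The authors deposited raw UMI counts for each gene in each barcode, made with Cell Ranger 7.0.1 on mm10, per the submitters' processing notes; whether introns and strand were counted is not given in the sources used here. Genes on the opposite strand overlap Col4a1 (Gm15418), Col4a2 (Gm15419), Col4a3 (C430014B12Rik), Col15a1 (Gm12426) and Col18a1 (Slc19a1), so their reads may not be told apart.

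Barcodes with at least 500 UMIs, 300 genes and at most 20% mitochondrial UMIs were kept. Scrublet removed 1112, 2163 and 3182 doublets in Prkag2-p.R299Q, Myh6-R404Q and WT, which is 14.0%, 17.1% and 17.6% of barcodes against 6.36%, 10.1% and 14.4% expected from loading. Cells were clustered with scanpy 1.11.5 (2000 variable genes without the members, 30 components, 20 neighbours, Leiden resolution 0.8), and named from marker lists. Finer clusters are those of a clustering of all cells at resolution 1.6.

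Counts were summed per class and library. Levels have exact Poisson 95% intervals and ratios exact conditional binomial ones. A gene was measured in a comparison at a mean of at least 10 CPM, and past the threshold at 1.5-fold. With 1 library per genotype no test was run. Members and gene lists were chosen with earlier results of these data known. Text names all members, from each list the genes past 1.5-fold with an interval beyond 1 and the 4 of highest level, and the 5 genes of highest r (at least 50 CPM somewhere), of which 1 is not reported here. The ratio method was tested on simulated data. Alternatives covered scaling (edgeR 4.0.16 TMM, median of ratios), level and depth minimums, thinning, doublets, clustering and denominators. Python 3.11.15 and R 4.3.3 were used.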

Additional observations from a re-analysis of the deposited data

Results flagged for a closer look

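In 8 pairs of member and class, a member was past 1.5-fold in a class in the direction opposite to that of the same comparison in another class, with intervals beyond 1. None of these differences between classes was tested. Over all genes, between 6.15% (cardiomyocytes) and 13.3% (endocardium) were past 1.5-fold in the same comparison and direction in the classes other than fibroblasts. For Col15a1, Prkag2-p.R299Q was 0.384 (0.128 to 0.964) of WT in the endocardium, from 6 UMIs in Prkag2-p.R299Q and 24 in WT, and 1.58 (1.02 to 2.45) of WT in pericytes, from 48 and 42 UMIs. For Col4a5, Myh6-R404Q was 1.87 (1.72 to 2.03) of WT in fibroblasts and 0.602 (0.383 to 0.92) of WT in lymphatic endothelium, from 30 UMIs in Myh6-R404Q and 87 in WT. For Col4a4, Prkag2-p.R299Q was 3.08 (1.01 to 11.2) of Myh6-R404Q in lymphatic endothelium, from 12 and 5 UMIs. It was lower in other classes, at 0.641 (0.489 to 0.834) of Myh6-R404Q in pericytes, 0.553 (0.435 to 0.70) in cardiomyocytes and 0.394 (0.227 to 0.663) in macrophages. Cardiomyocytes and macrophages held under 1/5 of the endocardial Col4a4 level. Several of these calls depend on the processing. Under other settings Col15a1 was 0.198 to 0.992 of WT in the Prkag2-p.R299Q endocardium and 1.20 to 2.27 in pericytes. Col4a4 in Prkag2-p.R299Q was 1.28 to 5.67 of Myh6-R404Q in lymphatic endothelium, 0.536 to 0.775 in pericytes, 0.542 to 0.752 in cardiomyocytes and 0.387 to 0.783 in macrophages. Lymphatic Col4a5 was 0.468 to 0.735 of WT in Myh6-R404Q, while fibroblast Col4a5 stayed at 1.82 to 1.89.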

How the results depend on the processing

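No paired analysis was possible because each genotype had 1 library, and leaving out a library leaves no comparison. The numbers of fibroblast members past 1.5-fold stayed within 1.5 times their value in all 13 alternatives that recomputed them. Of these, 11 were planned and 2 added after seeing the data. The number higher in Myh6-R404Q was 4 or 5. Some alternatives could not change these numbers. All 8 members already passed the level minimum in fibroblasts, and no fibroblast cluster held under 200 cells. A minimum of 50 CPM and the limit of 1/5 of the highest class left out only Col18a1, which was within 1.5-fold. Single ratios were recomputed under 10 settings, and each ratio counts once per setting. Of the 1110 recomputed values, 1064 lay within the counting interval of the reported ratio. Of the 280 values for ratios reported past 1.5-fold, 0 changed direction and 28 came below the fold. Most of the ratios reported past 1.5-fold came below it in some setting. Among these, Myh6-R404Q over WT for fibroblast Col15a1 ranged from 1.45 to 1.56, and Prkag2-p.R299Q over WT for mesothelial Col4a6 from 1.12 to 1.55, with Myh6-R404Q over WT from 1.44 to 1.75. Lymphatic Col18a1 ranged from 1.39 to 2.04 in Prkag2-p.R299Q and from 1.12 to 2.07 in Myh6-R404Q, over WT. The cause was not tested. Depth limits Col18a1 most, at 199 UMIs in all kept Prkag2-p.R299Q cells.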
